A study of Macaca mulatta with 24 samples.

Results

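Wood smoke was compared with filtered air at the end of a recovery week, in cultured airway epithelial cells of 4 rhesus macaques. The comparison took the 4 smoke libraries and the 4 air libraries collected after recovery, 8 of the 24 RNA-seq libraries of the series, and paired them by animal. Genes were tested where 4 or more of these 8 libraries reached a value of 10, which gave 13182 of 35432 genes. Of the genes left out, 15339 had no value above 0 in the 8 libraries. The smoke group was exposed to diluted whole wood smoke for 6 hours a day on 5 days and was then kept for 7 days without exposure. The air group went through the same 5 sessions and 7 days in filtered air. In both groups the cells came from the trachea and bronchi of adult females and had differentiated at an air-liquid interface in medium that held retinoic acid. Each animal gave 1 culture to each group. The animals S1, S2, S3 and S4 had ages of 5463, 2930, 2238 and 1128 days and body weights of 5.59, 7.17, 4.56 and 3.18 kg, so age cannot be told apart from animal. The series also has smoke and air cultures of the same animals collected after 1 day and after 5 days of exposure, 4 per group. Lists of 4 values below run in the order S1 to S4.

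The airway lining renews itself from basal cells, which sit on the basement membrane and carry keratin 5 and the transcription factor p63. Hemidesmosomes, built on the integrin of ITGA6 and ITGB4, fasten them to the laminins of that membrane, and desmosomes fasten them to each other. Their daughters become secretory cells or multiciliated cells, and retinoic acid favours that mucociliary fate over a squamous one. Wood smoke carries polycyclic aromatic hydrocarbons, which act on the aryl hydrocarbon receptor (AHR), and oxidants, which act on the NRF2 response. A recovery week asks which part of the response outlasts the exposure.

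The deposited values are normalized counts per gene and library. Their totals were 12.4 to 13.3 M in smoke libraries and 12.5 to 13.4 M in air libraries, and 12948 to 13232 genes per smoke library and 13056 to 13202 per air library reached 10. The share of the 13 mitochondrially encoded genes was 4.25 ± 0.741% in smoke and 5.44 ± 1.33% in air (SD, n = 4 each). It was lower in smoke in 4 of 4 animals (exact sign-flip test, two-sided p = 0.125, the smallest that 4 pairs allow, adjusted p = 0.25 over 4 library measures), and its part in the results was not tested. Of 14 immune genes, 6 were at 0 in all 8 libraries, among them CD3D and MS4A1, and the list summed to 682 to 873 normalized counts in smoke and 713 to 1014 in air. Of 14 stromal and endothelial genes LUM, DES and CDH5 were at 0, and COL1A1, COL1A2 and DCN were below the filter. That list still summed to 8371 to 14138 in smoke and 7908 to 13659 in air, most of it from the endothelial receptor gene KDR, at 7309, 12090, 11555 and 13341 in smoke and 6969, 11243, 9538 and 12729 in air (log2 0.13, adjusted p = 0.14). The part of KDR-expressing cells in the results was not tested. The epithelial label held for basal and ciliated markers, while the club cell gene SCGB1A1 was low, at 12.7, 5.89, 47.8 and 14.8 normalized counts in smoke and 12.9, 3.43, 32.1 and 13.1 in air. Of the mucin genes MUC5B was nearly absent in S2, at 2.95 in smoke and 1.11 in air, against 1069 or more in each library of the other animals, and MUC5AC had no match in the table.

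After the recovery week the smoke cultures had less RNA of basal cell, cell attachment, matrix and cell division genes, less RNA of the retinoic acid-degrading enzymes, and more RNA of endoplasmic reticulum chaperones and motile cilium genes. The number of motile cilium genes called depended strongly on the fit, as given below. With limma on log2(value + 1) and the animal as a block, 2755 genes were called at a Benjamini-Hochberg adjusted p under 0.05. This was 20.9% of the genes tested. Of them 1311 were higher in smoke (9.95% of the genes tested) and 1444 were lower (11%). Counts of list members called, given below, are to be set beside these shares. Most changes were small. The median log2 fold change, smoke over air, was 0.38 among genes called higher and −0.40 among genes called lower, and over all genes tested it was 0.01. A change of 2-fold or more was seen for 26 genes called higher and 121 called lower. The 4 smoke libraries and the 4 air libraries did not overlap for 836 of the called genes, and for 8.42% of all genes tested. The animals' own smoke-minus-air differences had the same sign in 4 of 4 animals for 2610 of the called genes, and for 39.8% of all genes tested. Without the block, which ignores that each animal gave both cultures, 6 genes were called, and without S2, S3 or S4 the count was 1729, 1320 or 1381.

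**Figure D1:**
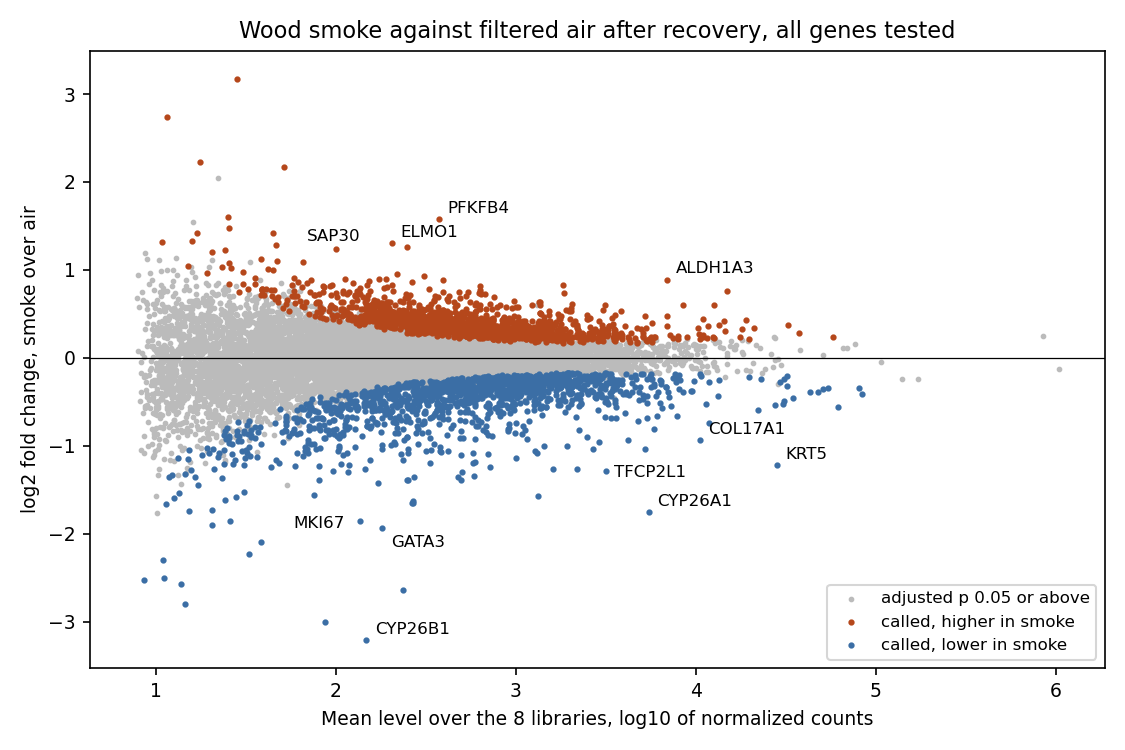
Each point is 1 of the 13182 genes tested, with its mean level over the 8 libraries (log10 of normalized counts) on the x axis and its log2 fold change, smoke over air after recovery, on the y axis. Orange points were called higher in smoke (1311), blue points lower (1444), grey points were not called; the labelled falls reach further from 0 than the labelled rises.

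Among genes with a symbol, a mean of at least 50 and the same sign in 4 of 4 animals, the largest fall was that of CYP26B1 (ENSMMUG00000012141), an enzyme that degrades retinoic acid. It had 44.7, 19.7, 63.2 and 9.19 normalized counts in smoke, against 194, 250, 313 and 291 in air. The groups did not overlap, and S4 had the lowest smoke value and the largest fall (log2 −3.21 ± 0.34 SE, adjusted p = 0.00013). GATA3, a transcription factor gene, had 47.3, 167, 48.1 and 23.0 in smoke against 104, 710, 240 and 114 in air (−1.94 ± 0.19, adjusted p = 7.4e-05). S2 had the most GATA3 in both groups, so the groups overlapped although every animal fell. Other large falls were those of MKI67, CYP26A1, TNS4, HAS3, HIC1, COL4A2, SOX9, DSG3 and SCNN1G, from −1.86 to −1.38. HAS3 makes hyaluronan, SOX9 is a progenitor transcription factor gene, and SCNN1G encodes a subunit of the epithelial sodium channel.

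The largest rise was that of PFKFB4, which sets the level of a glycolysis activator. It had 588, 624, 484 and 518 normalized counts in smoke against 184, 280, 106 and 208 in air, with no overlap (log2 1.58 ± 0.14 SE, adjusted p = 5.1e-05). ELMO1, which acts in engulfment of dead cells and in cell migration, had 264, 293, 249 and 369 in smoke against 137, 140, 101 and 95.5 in air (1.31 ± 0.15, adjusted p = 0.00019). SAP30, a subunit of a histone deacetylase complex, had 121, 150, 115 and 178 in smoke against 50.1, 51.2, 54.8 and 83.7 in air (1.23 ± 0.15, adjusted p = 0.00025). Each of these rose in every animal, and none of the smoke libraries reached down to an air library. TMEM26 (1.25), PDE4D (1.09), CRELD2 (0.95), AKAP14 (0.93), DDN (0.91), PTPRR (0.90), ZNF816 (0.90), CCDC81 (0.89) and ALDH1A3 (0.89) completed the 12 largest rises. PDE4D breaks down cyclic AMP, and AKAP14 is an anchoring protein gene of the cilium.

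**Figure D2:**
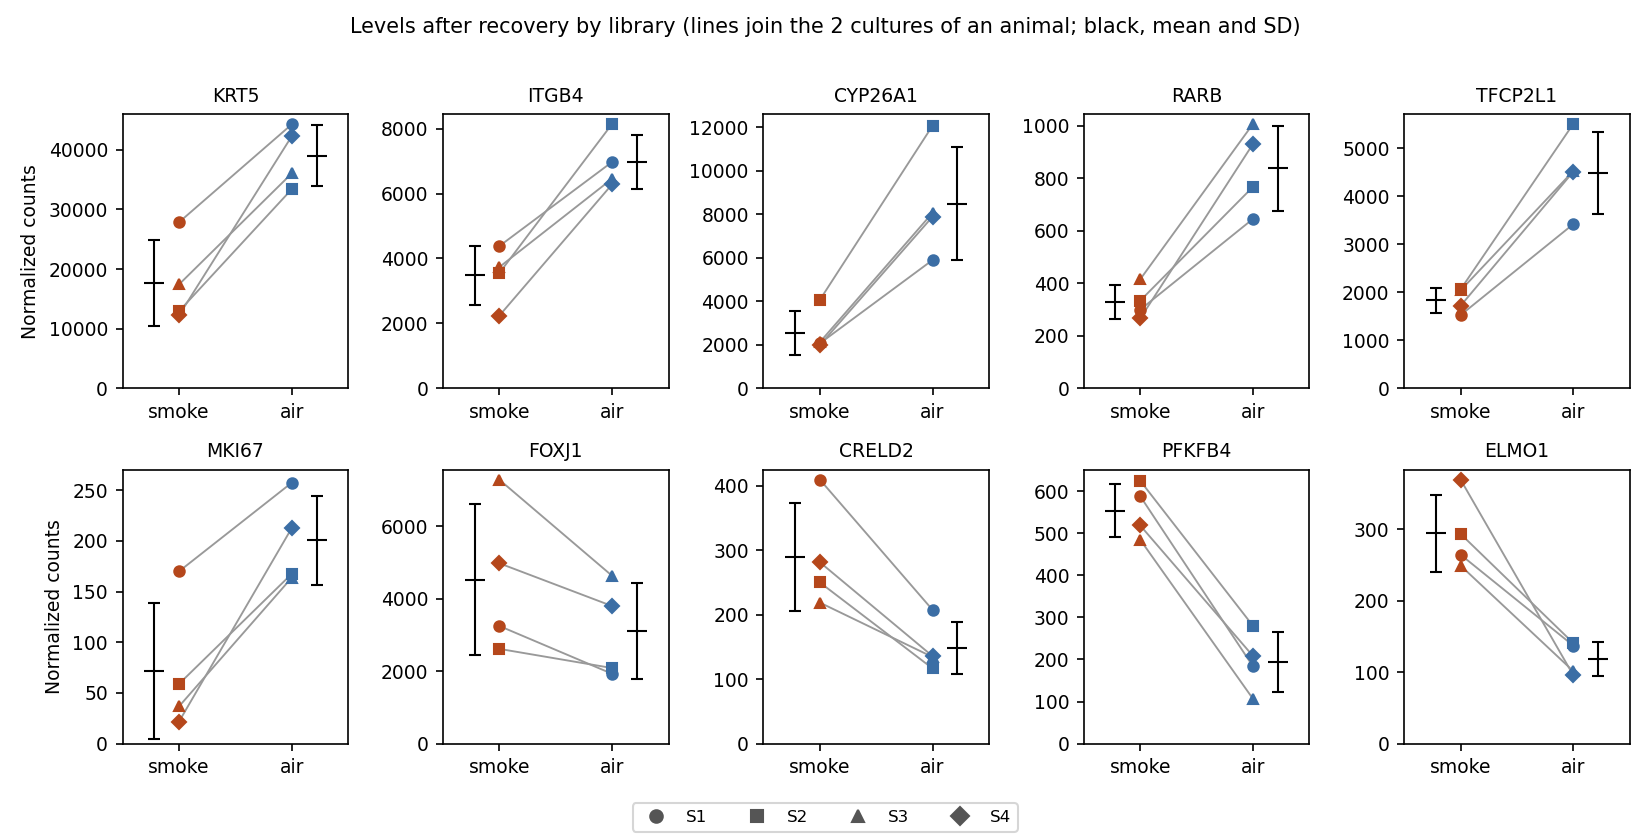
Normalized counts of 10 genes in the 4 smoke (left, orange) and 4 air (right, blue) libraries after recovery; a grey line joins the 2 cultures of an animal, symbols mark the animals, and black bars give the mean and SD. All lines run up to air for KRT5, ITGB4, CYP26A1, RARB, TFCP2L1 and MKI67, and down to air for FOXJ1, CRELD2, PFKFB4 and ELMO1.

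Basal cell identity genes were lower in smoke: 12 of 14 members tested fell and 0 rose. The list median was −0.56, against 0.01 for all genes tested. KRT5 (ENSMMUG00000055016) had 27860, 12912, 17412 and 12227 normalized counts in smoke, against 44317, 33427, 36078 and 42334 in air. Every smoke library lay below every air library (log2 −1.22 ± 0.13 SE, adjusted p = 0.00013). TP63, which specifies basal cells, fell less, to 477, 458, 463 and 344 in smoke against 669, 598, 597 and 586 in air (−0.50 ± 0.08, adjusted p = 0.0021). The nerve growth factor receptor gene NGFR, a surface marker of basal cells, had 1022, 1073, 962 and 409 in smoke against 1727, 2208, 1700 and 1348 in air (−1.08 ± 0.12, adjusted p = 0.00018). The water and glycerol channel gene AQP3 fell by 0.74 (SE 0.06, adjusted p = 3e-05) without overlap. S100A2, PDPN, BCAM and CAV1 fell by 0.37 to 0.62. DLK2 (−0.17) and SNAI2 (−0.04) did not pass. The count of 12 was 11 or 12 with 1 animal left out, 5 in the fit of all 24 libraries and 6 without the mean trend. Summed over the list, smoke libraries held 37026 to 59282 and air libraries 84962 to 91662 normalized counts. In bulk RNA, fewer basal cells and less RNA of these genes per cell cannot be told apart.

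Genes of the hemidesmosome and its laminin fell almost as a set, 9 of 10 members lower and 0 higher, with a list median of −0.61. ITGB4 and COL17A1 are also on the basal cell list, so the counts of these lists share members. ITGB4 had 4380, 3551, 3733 and 2235 normalized counts in smoke against 6976, 8151, 6458 and 6288 in air (log2 −1.04 ± 0.11 SE, adjusted p = 0.00011). Its partner ITGA6 had 1708, 1456, 1286 and 773 in smoke against 2767, 3207, 2077 and 2196 in air (−1.01 ± 0.11, adjusted p = 0.00015). In both genes S4 had the lowest smoke value. COL17A1, the collagen that spans the basal membrane in the hemidesmosome, had 5918, 11937, 5635 and 5777 in smoke against 10594, 21406, 10571 and 12858 in air. S2 was high in both groups, so the groups overlapped although every animal fell, by 0.84 to 1.15 (−0.94 ± 0.07, adjusted p = 8.5e-06). The plakins PLEC (−0.67) and DST (−0.46) fell, and so did chains of that laminin, LAMA3 by 0.90 and LAMB3 by 0.48. The laminin-binding integrin gene ITGA3 fell by 0.55, and the tetraspanin gene CD151 (−0.05) was the member that did not pass. The count of 9 was the same with any 1 animal left out, 6 in a fit of all 24 libraries and 5 without the mean trend in the variances.

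Desmosome genes also fell, with 8 of 10 members lower, 0 higher and a list median of −0.53. The desmosomal cadherin gene DSG3 had 204, 188, 82.0 and 93.0 normalized counts in smoke against 414, 432, 252 and 316 in air (log2 −1.39 ± 0.13 SE, adjusted p = 6e-05). DSC3, its partner cadherin of basal layers, had 233, 187, 218 and 189 in smoke against 369, 458, 433 and 468 in air (−1.06 ± 0.11, adjusted p = 0.00013). The plakophilin gene PKP1 fell by 1.14, DSC2 by 0.91 and the desmoplakin gene DSP, which ties desmosomes to keratin, by 0.66. DSG2, the desmoglein of simple epithelia, fell by 0.21, and PERP (−0.11) and PKP3 (−0.10) did not pass. Tight junction genes moved less as a list, with 4 of 12 lower (33.3%), 1 higher (8.33%) and a median of −0.06. Over all genes tested 11% were called lower and 9.95% higher. The scaffold genes TJP1 (−0.55 ± 0.06, adjusted p = 0.00015) and CGN (−0.25) and the claudin gene CLDN1 (−0.57) fell, while CLDN3 rose by 0.31. OCLN, CLDN4 and CLDN7 did not pass. In the fit of all 24 libraries 3 desmosome genes and 0 tight junction genes were called.

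Of 12 squamous and cornified envelope genes 5 fell (41.7%, against 11% of all genes tested) and 0 rose, and the list median was −0.49. KRT13, a keratin of stratified squamous cells, had 26889, 19001, 18025 and 25946 normalized counts in smoke against 35197, 25347, 31540 and 37675 in air (log2 −0.54 ± 0.08 SE, adjusted p = 0.00077). KRT16 (−0.59), the envelope plakins PPL (−0.66) and EVPL (−0.53) and the crosslinking enzyme gene TGM1 (−0.84) also fell. IVL (−0.82) and SPRR3 (0.05) did not pass, and KRT6A and SPRR1B had no match in the table. The count of 5 stood at 2 in the fit of all 24 libraries and at 0 without the mean trend.

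Epithelial migration and focal adhesion genes were lower, 15 of 18 members fell and 0 rose (median −0.45). ITGA2 (ENSMMUG00000020448), a collagen receptor subunit, had 1657, 1166, 1269 and 1086 normalized counts in smoke against 3564, 2691, 2978 and 3082 in air. The groups did not overlap, and the fall lay between −1.10 and −1.50 in the 4 animals (log2 −1.26 ± 0.07 SE, adjusted p = 9.2e-07). EMP1, an epithelial membrane protein gene, had 303, 303, 239 and 320 in smoke against 750, 811, 577 and 740 in air (−1.30 ± 0.08, adjusted p = 1.8e-06). ITGA2, EMP1 and DSC3 were among the 6 genes also called without the block, beside TFCP2L1, COL18A1 and NRIP1. TNS4, a tensin of focal adhesions, fell by 1.65, and CD44, the hyaluronan receptor gene, by 0.67. The urokinase gene PLAU (−0.64) and its receptor gene PLAUR (−0.39) also fell. The integrin genes ITGB1 (−0.03) and ITGAV (−0.11) and the adaptor gene PXN (−0.15) did not pass. The count of 15 stood at 9 in the fit of all 24 libraries and at 4 without the mean trend.

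Matrix and matrix remodelling genes had 17 of 17 members below 0, of which 11 fell beyond the threshold, and a list median of −0.62. Tenascin C, TNC, had 681, 136, 263 and 124 normalized counts in smoke against 1121, 385, 532 and 577 in air (log2 −1.36 ± 0.18 SE, adjusted p = 0.00046). SPARC, which binds collagen, had 2054, 1967, 1688 and 957 in smoke against 2943, 3387, 2728 and 2317 in air (−0.82 ± 0.10, adjusted p = 0.00024). COL4A2 of the basement membrane fell by 1.43, the crosslinking enzyme gene LOXL2 by 1.07 and the metalloprotease genes MMP9 and MMP13 by 0.95 and 0.81. Fibronectin, FN1, fell in 3 animals and was higher in smoke in S1, at 776, 110, 638 and 1913 in smoke against 669, 485, 1407 and 4287 in air (−1.05 ± 0.25, adjusted p = 0.011). VIM (−0.48) and COL4A1 (−0.45) did not pass. The count of 11 stood at 5 in the fit of all 24 libraries and at 2 without the mean trend.

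**Figure D3:**
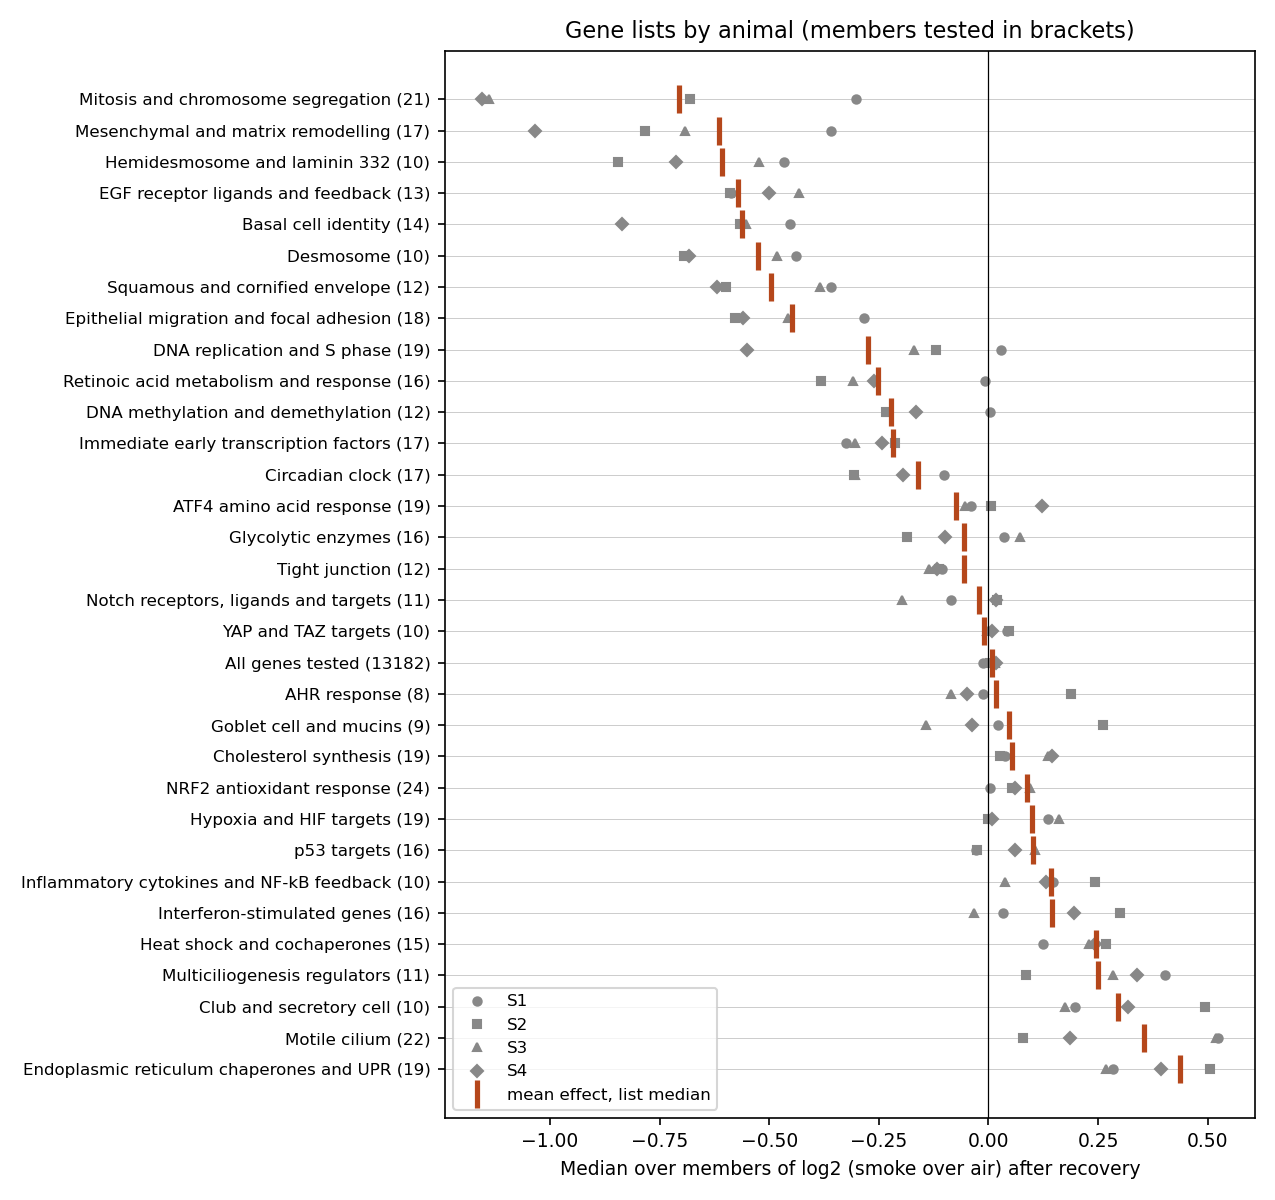
For each gene list with at least 8 members tested, grey symbols give the median over members of the log2 smoke-over-air difference in each of 4 animals, and the orange bar gives the list median of the mean effect. The mitosis, matrix, hemidesmosome, EGF receptor, basal cell, desmosome, squamous and migration lists lie below 0 in 4 of 4 animals. The tight junction, immediate early, clock and retinoic acid lists, with medians nearer to 0, do so too. The heat shock, multiciliogenesis, club, motile cilium, endoplasmic reticulum, NRF2, cholesterol and inflammatory lists lie above 0 in 4 of 4. The median for all genes tested was 0.01.

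Genes of retinoic acid metabolism and response were divided by role. The degrading enzymes fell most. CYP26A1 (ENSMMUG00000010881) had 2053, 4055, 2108 and 1971 normalized counts in smoke against 5890, 12072, 8064 and 7887 in air (log2 −1.76 ± 0.08 SE, adjusted p = 3.7e-07), and CYP26B1 fell as given above. The receptor gene RARB, itself a target of retinoic acid, had 299, 333, 415 and 265 in smoke against 645, 768, 1007 and 931 in air (−1.35 ± 0.11, adjusted p = 2.4e-05), with no overlap. CRABP2, which carries retinoic acid to its receptors, fell by 0.89, and the receptor genes RARA, RARG and RXRA fell by 0.25 to 0.35. Of the enzymes that make retinoic acid, ALDH1A3 rose in every animal, with 9942, 14634, 6326 and 5233 in smoke against 5959, 7133, 3310 and 2917 in air (0.89 ± 0.06, adjusted p = 8.5e-06). ALDH1A1 rose by 0.22 (adjusted p = 0.045). Of 16 members tested, 9 fell and 3 rose. The count of 3 stood at 1 without S2, S3 or S4, with the animal as a random effect and in the fit of all 24 libraries. The small falls depended on the fit: the count of 9 stood at 4, 5 or 4 without S2, S3 or S4, at 4 with library totals as the scaling, and at 3 in the fit of all 24 libraries, which still called CYP26A1, CYP26B1 and RARB lower and ALDH1A3 higher.

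**Figure D4:**
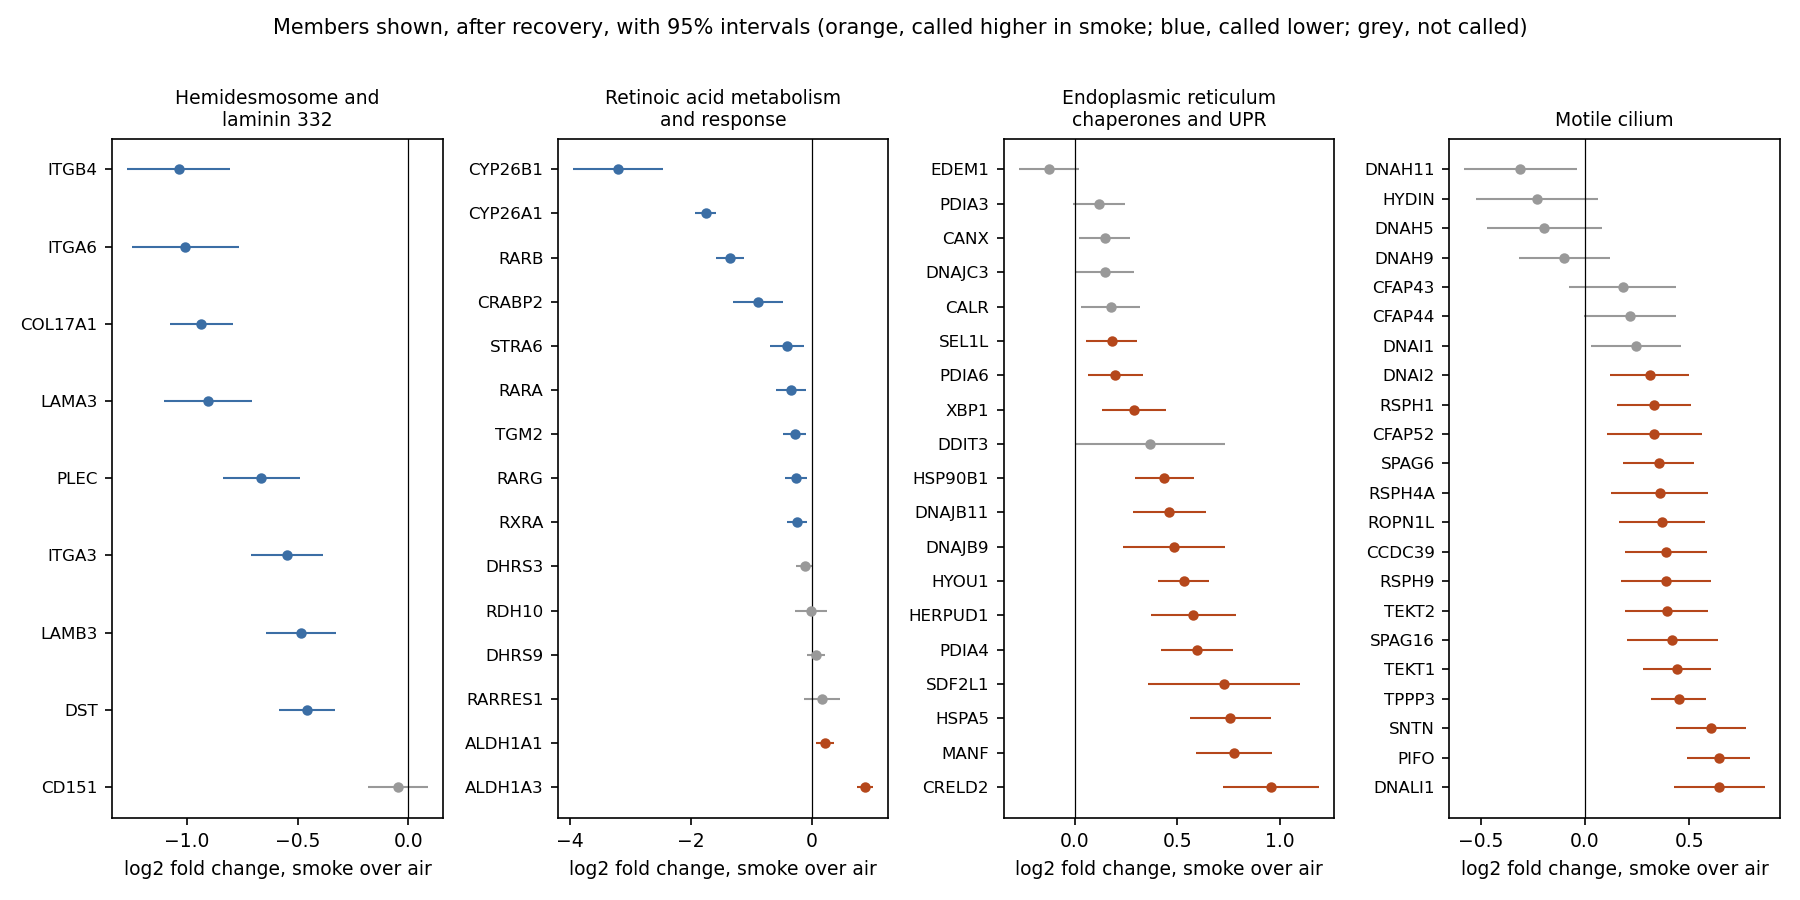
Log2 fold change, smoke over air after recovery, with its 95% interval for the members shown of 4 lists; orange members were called higher, blue lower and grey not called. CYP26B1 lies at −3.21 and ALDH1A3 at 0.89 in the retinoic acid list, every hemidesmosome member shown but CD151 lies below 0 with its interval, and 13 of 19 endoplasmic reticulum members and 15 of 22 motile cilium members were called higher.

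The EGF receptor, its ligands and its feedback genes had 7 of 13 members lower and 0 higher (median −0.57). EGFR itself had 1215, 828, 981 and 941 normalized counts in smoke against 1364, 1247, 1217 and 1332 in air (log2 −0.39 ± 0.08 SE, adjusted p = 0.0043). Its ligand genes HBEGF (−0.86), AREG (−0.69) and TGFA (−0.57) fell, and BTC, another ligand gene, was at 0.62 without passing (adjusted p = 0.053). The feedback genes PHLDA1 (−0.91), DUSP6 (−0.78) and ERRFI1 (−0.60) fell. Immediate early transcription factor genes, which respond within minutes to growth factors, had 7 of 17 lower and 0 higher (median −0.22). FOS had 837, 598, 655 and 601 in smoke against 1136, 1104, 1208 and 1180 in air (−0.79 ± 0.09, adjusted p = 0.00013), with no overlap. EGR1 fell by 1.08 (SE 0.14, adjusted p = 0.00043), JUN by 0.67 and MYC by 0.73. FOSL1 was low and fell in each animal, to 5.11, 12.8, 12.2 and 6.89 in smoke against 90.3, 36.8, 26.9 and 14.9 in air (−1.86 ± 0.44, adjusted p = 0.012). ATF3, JUNB, IER3 and NR4A1 did not pass. In the fit of all 24 libraries 2 genes of the EGF receptor list and 5 immediate early genes were called lower.

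Cell division genes were lower in smoke. Of 21 mitosis and chromosome segregation genes 10 fell and 0 rose, with a list median of −0.71. MKI67, a marker of cycling cells, had 170, 58.9, 36.8 and 21.8 normalized counts in smoke against 257, 168, 164 and 213 in air (log2 −1.86 ± 0.30 SE, adjusted p = 0.0017). The highest smoke value, that of S1, lay just above the lowest air value. S1, the oldest animal, fell least, and S4, the youngest, fell most. The topoisomerase gene TOP2A had 157, 81.5, 76.4 and 47.1 in smoke against 194, 208, 209 and 189 in air (−1.26 ± 0.21, adjusted p = 0.0018). The spindle genes KIF20A (−1.23) and TPX2 (−1.04), the kinetochore gene CENPF (−1.08) and the cyclin gene CCNB1 (−0.60) fell. CDK1 (0.05) and KIF11 (−0.10) did not pass. The list medians by animal were −0.30, −0.68, −1.14 and −1.16. The count of 10 stood at 6, 6 or 5 without S2, S3 or S4 and at 3 in the fit of all 24 libraries. DNA replication and S phase genes had 3 of 19 lower, MCM3, MCM4 and POLA1, and 0 higher (median −0.28). This was 15.8%, near the 11% of all genes tested that were called lower. Each of the 3 lost its call when S2 was left out, and 0 were called in the fit of all 24 libraries.

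Motile cilium genes were higher in smoke: 15 of 22 members rose and 0 fell (median 0.35). The radial spoke and axoneme genes RSPH1, RSPH9, SPAG6, TEKT1 and TEKT2 rose by 0.33 to 0.44. PIFO, of the ciliary base, had 1191, 894, 2497 and 2008 normalized counts in smoke against 716, 658, 1475 and 1304 in air (log2 0.64 ± 0.07 SE, adjusted p = 0.00013). SNTN, of the ciliary tip, had 586, 519, 1088 and 686 in smoke against 340, 374, 734 and 453 in air (0.60 ± 0.08, adjusted p = 0.00038). S3 and S4 were high in both groups, so smoke and air overlapped although each animal rose. The long dynein heavy chain genes DNAH5 (−0.19), DNAH9 (−0.10) and DNAH11 (−0.31) and HYDIN (−0.23), which are among the largest axonemal proteins, did not pass. The list medians by animal were 0.52, 0.08, 0.52 and 0.19. Without S1 11 members were called higher and 3 lower. The count of 15 stood at 5 without S3, at 3 with the animal as a random effect, at 2 without the mean trend and at 1 in the fit of all 24 libraries.

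Of 11 regulators of multiciliogenesis 4 rose and 0 fell (median 0.25). FOXJ1, the transcription factor gene that switches on motile cilium genes, had 3247, 2615, 7281 and 4976 normalized counts in smoke against 1926, 2086, 4629 and 3796 in air (log2 0.53 ± 0.07 SE, adjusted p = 0.00062). GMNC, which starts the program (0.57), DEUP1 of the deuterosome (0.52) and RFX3 (0.46) rose too, and MCIDAS was below the filter. The count of 4 stood at 2 without S3, at 1 without S4, and at 0 with the animal as a random effect and in the fit of all 24 libraries. Club and secretory genes had 5 of 10 higher and 0 lower (median 0.30). AGR3, a protein disulfide isomerase gene of ciliated and secretory cells, had 1870, 2297, 2221 and 3008 in smoke against 1278, 1284, 1211 and 1437 in air (0.83 ± 0.08, adjusted p = 6e-05), with no overlap. LYZ (0.45), SLPI (0.41), LCN2 (0.30) and CYP4B1 (0.29), which encode antimicrobial proteins, a protease inhibitor and a secretory cell cytochrome, also rose. The count of 5 stood at 1 with the animal as a random effect and at 1 in the fit of all 24 libraries. Goblet cell genes had 2 of 9 higher (22.2%, against 9.95% of all genes tested), BPIFB1 (0.37) and AGR2 (0.32), and 0 lower. SPDEF (−0.12) and MUC5B (−0.45, adjusted p = 0.27) did not pass. With the animal as a random effect and in the fit of all 24 libraries 0 goblet genes were called. AGR2 lost its call without S2 or S4, and 2 members were called lower without S2.

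TFCP2L1 (ENSMMUG00000008829), a transcription factor gene on the ionocyte list, had 1519, 2056, 2034 and 1713 normalized counts in smoke against 3417, 5506, 4524 and 4510 in air (log2 −1.28 ± 0.06 SE, adjusted p = 3.8e-07). The animals' differences lay between −1.15 and −1.42 and the groups did not overlap. The defining ionocyte genes FOXI1 and ASCL3 were below the filter, and the ionocyte channel gene CFTR was at 0.37 without passing (adjusted p = 0.28). The gene is therefore given by its own values and not as a sign of that cell type. Of 4 tested tuft and neuroendocrine genes 0 passed in limma, and 0 had an unadjusted p under 0.05. Of 4 tested immune genes CD68 fell by 0.26, a call lost without S2, S3 or S4. Of 6 tested stromal and endothelial genes 0 passed in limma, and MYH11 had an unadjusted p under 0.05 (0.026).

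Endoplasmic reticulum chaperone and unfolded protein response genes rose, 13 of 19 members higher and 0 lower, with a list median of 0.44. HSPA5, the lumenal HSP70 also called BiP, had 20120, 20859, 14428 and 19422 normalized counts in smoke against 13910, 9668, 10147 and 10561 in air (log2 0.76 ± 0.09 SE, adjusted p = 0.00026), with no overlap. The secreted folding factor genes CRELD2 (0.95 ± 0.11, adjusted p = 0.00017) and MANF (0.78 ± 0.09, adjusted p = 0.00015) and the chaperone gene HYOU1 (0.53 ± 0.06, adjusted p = 0.00013) rose without overlap. HSP90B1, PDIA4, SDF2L1 and DNAJB11, of the same folding machinery, rose by 0.44 to 0.73, and XBP1, a transcription factor gene of the response, by 0.29. DDIT3 (0.37, adjusted p = 0.14), the stress gene of prolonged unfolded protein response, did not pass, nor did EDEM1 (−0.13), CALR (0.18) and CANX (0.15). The count of 13 lay between 9 and 11 with 1 animal left out, at 9 in the fit of all 24 libraries and at 3 without the mean trend.

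Cytosolic and mitochondrial heat shock genes had 7 of 15 higher (46.7%) and 3 lower (20.0%), against 9.95% and 11% of all genes tested (median 0.25). HSPA8, the constitutive HSP70, had 20298, 27580, 24496 and 22076 normalized counts in smoke against 18631, 19179, 19383 and 17311 in air (log2 0.33 ± 0.07 SE, adjusted p = 0.0069). DNAJA1 (0.42), HSPD1 (0.38), HSPE1 (0.68), HSPH1 (0.33), FKBP4 (0.35) and DNAJB4 (0.36) also rose. The cochaperone genes BAG3 (−0.58) and DNAJB1 (−0.29) and the small heat shock protein gene HSPB1 (−0.26) fell. Hypoxia and HIF target genes split, with 5 of 19 measured identifiers higher (26.3%) and 3 lower (15.8%), against 9.95% and 11% of all genes tested (median 0.10). Beside PFKFB4, the oxygen sensor gene EGLN3 rose by 0.61 (SE 0.06, adjusted p = 0.00012), MXI1 by 0.49, P4HA1 by 0.37 and ERO1A by 0.33. CA9 (−0.67), ADM (−0.49) and DDIT4 (−0.24) fell, and VEGFA (−0.12) did not pass. Glycolytic genes had 2 of 16 higher (12.5%), HK2 (0.61) and the lactate transporter gene SLC16A3 (0.46), and 4 lower (25.0%), HK1, ENO1, ALDOA and GPI, by 0.23 to 0.35. In the fit of all 24 libraries the calls were 3 higher and 2 lower for heat shock, 1 higher and 0 lower for hypoxia, and 0 higher and 1 lower for glycolysis.

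Genes of the AHR and NRF2 responses were called in both directions after recovery. CYP1B1, the main AHR target measured here, had 464, 627, 305 and 291 normalized counts in smoke against 322, 465, 367 and 381 in air. It was higher in smoke in S1 and S2 and lower in S3 and S4 (log2 0.07 ± 0.14 SE, adjusted p = 0.74), and the 95% interval of the difference ran from −0.23 to 0.38. CYP1A1 was below the filter, at 6.39, 0, 0.94 and 0 in smoke and 1.09, 0, 0 and 1.86 in air. Of 8 tested AHR genes 2 rose (25.0%) and 2 fell (25.0%), against 9.95% and 11% of all genes tested, and 0 were called in the fit of all 24 libraries. The falls were those of ARNT (−0.26), a call lost without S2 or S3, and IL1A (−0.91), a call lost without S2, S3 or S4. IL1A is also on the inflammatory list. ALDH3A1, an aldehyde dehydrogenase gene, had 23818, 12769, 25500 and 25429 in smoke against 17698, 8834, 19306 and 19569 in air (0.43 ± 0.06, adjusted p = 0.00061), and the receptor's repressor gene AHRR rose by 0.19 with an adjusted p just under the threshold, a call lost when S2, S3 or S4 was left out. NRF2 genes went both ways, with 4 of 24 higher (16.7%) and 5 lower (20.8%), against 9.95% and 11% of all genes tested. TXN (0.39), GPX2 (0.33), FTL (0.27) and PRDX1 (0.26) were higher, and TXNRD1 (−0.39), SRXN1 (−0.36) and SLC7A11 (−0.52) were among the lower. NQO1 (0.19) and HMOX1 (−0.27) did not pass. In the fit of all 24 libraries 0 NRF2 genes were called higher and 1 lower.

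Circadian clock genes had 7 of 17 lower (41.2%, against 11% of all genes tested) and 0 higher (median −0.16), with the clock output gene TEF at 358, 626, 508 and 322 normalized counts in smoke against 556, 1097, 873 and 586 in air (log2 −0.77 ± 0.07 SE, adjusted p = 6.9e-05) and NR1D1 at −0.80. CLOCK, CRY1 and ARNTL did not pass. The count of 7 was the same with any 1 animal left out and stood at 4 in the fit of all 24 libraries. The Notch ligand gene JAG1 (−0.86) and the receptor gene NOTCH3 (−0.85) fell, 2 of 11 Notch genes (18.2%), and 0 rose. Of the amino acid response genes of ATF4, 3 of 19 were higher and 3 lower (15.8% each), against 9.95% and 11% of all genes tested. The transporter gene SLC7A5 had the smallest p, with 506, 376, 324 and 271 in smoke against 801, 844, 790 and 827 in air (−1.18 ± 0.12, adjusted p = 0.0001). Cholesterol synthesis genes had 5 of 19 higher (26.3%) and 1 lower (5.26%). The p53 targets had 2 of 16 higher (12.5%) and 4 lower (25.0%), among the last MDM2 (−0.40). In the fit of all 24 libraries 0 p53 targets were called, 1 ATF4 gene was lower, and 1 cholesterol gene was higher and 1 lower. Inflammatory genes had 3 of 10 higher, CXCL8 (0.76), CXCL3 (0.64) and PTGS2 (0.18), and 1 lower, IL1A (−0.91), while 12 further members were below the filter or had no match. All 4 calls were lost with the animal as a random effect and in the fit of all 24 libraries, and 1 or 2 higher calls were made with any 1 animal left out. IL1A had 76.6 in smoke and 76.2 in air in S1, and lost its call without S2, S3 or S4. Interferon-stimulated genes had 1 of 16 higher (6.25%), OAS1 (0.43). DNA methylation genes had 2 of 12 lower (16.7%), DNMT1 (−0.37) and GADD45A (−0.38). YAP and TAZ targets had 2 of 10 higher (20.0%) and 1 lower (10.0%). Several of these shares lay near those of all genes tested. In the fit of all 24 libraries 0 Notch and 0 interferon-stimulated genes were called, 1 DNA methylation gene was lower, and 0 YAP and TAZ targets were higher and 1 lower.

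To see how the recovery effect differed from that during exposure, the smoke effects were compared in 1 fit of all 24 libraries, with a block for each animal at each time. The effect after recovery differed from that at 5 days for 591 of 13182 genes (4.48%), 237 moved up (1.8%) and 354 moved down (2.69%). In the 5-day air group the library of S1 was unlike the rest: its correlation to the other libraries had a median of 0.851, against 0.933 to 0.957 for the other 23. Without that library and its smoke partner 2377 genes differed (18%), 1188 up (9.01%) and 1189 down (9.02%). The count of 591 also depended on which animal was left out at all times: 25, 50 or 5 genes differed without S2, S3 or S4, and 2406 without S1. The 5-day comparison itself gave 0 calls in limma with the animal as a block (769 genes at an unadjusted p under 0.05), and 662 without S1 (5.02%). Of those 662, 113 were also called after recovery in the same direction, which is 17.1% of the 5-day calls and 4.10% of the recovery calls, and 135 in the opposite direction (20.4% and 4.90%). At 1 day 1462 genes were called (11.1%), of which 217 were called in the same direction after recovery (14.8% of the 1-day calls and 7.88% of the recovery calls) and 257 in the opposite one (17.6% and 9.33%). From 1 day to recovery the effect differed for 190 genes (1.44%), and for 2335 without the 5-day pair of S1, which is not in that contrast but enters the pooled variance.

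Several groups had the opposite sign at 5 days. Mitosis genes had list medians of −0.21 at 1 day, 0.75 at 5 days (0.55 without S1) and −0.71 after recovery, and for 13 of 21 members the effect moved down from 5 days (19 without the 5-day pair of S1). MKI67 went through log2 fold changes of −0.41, 1.53 and −1.86 in that order of times (recovery minus 5 days −3.39 ± 0.51 SE, adjusted p = 0.0039). Endoplasmic reticulum chaperone genes had medians of −0.17, −0.24 (−0.26 without S1) and 0.44, and for 11 of 19 members the effect moved up from 5 days (16 without that pair). At 1 day 11 of them were called lower, 0 higher. For CRELD2 the log2 fold changes were −0.45, −0.88 and 0.95 (difference from 5 days 1.84 ± 0.19 SE, adjusted p = 0.00094). Heat shock genes had medians of −0.26, −0.29 and 0.25, with 6 of 15 members moved up and 1 moved down from 5 days (12 and 2 without that pair), and hypoxia genes −0.09, −0.56 and 0.10, with 6 of 19 moved up (14 without that pair). For PFKFB4 the effect was −0.19, −0.69 and 1.58 (difference from 5 days 2.27 ± 0.22 SE, adjusted p = 0.00042), and for SAP30 −0.11, −0.77 and 1.23.

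**Figure D5:**
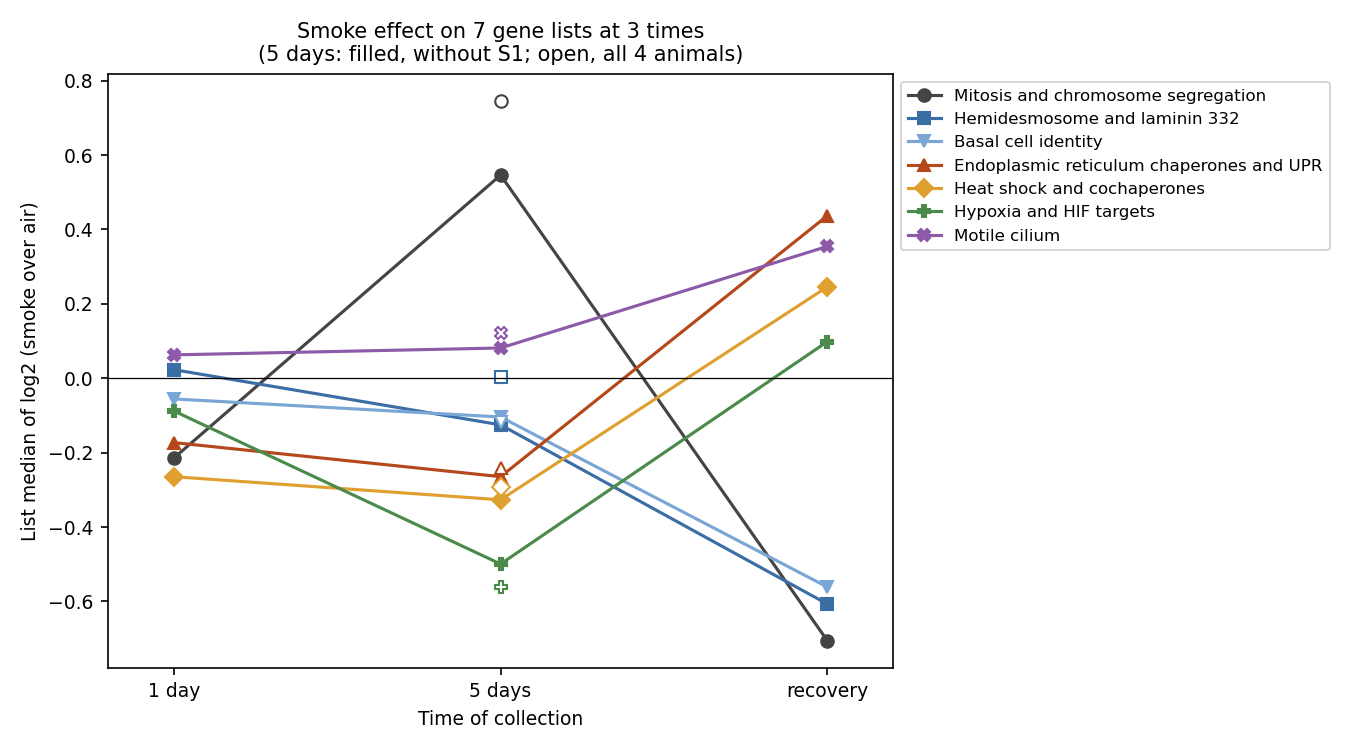
Median log2 smoke-over-air effect of 7 gene lists (y axis) at 1 day, 5 days and after recovery (x axis), each time fitted on its own 8 libraries; at 5 days filled symbols leave out S1 and open symbols hold all 4 animals. The mitosis list runs from −0.21 to 0.55 and to −0.71, and the endoplasmic reticulum list from −0.17 to −0.26 and to 0.44.

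Lists of basal cell and attachment genes had medians near 0 before recovery, although some members were called at 1 day. The basal cell list had medians of −0.06 at 1 day, −0.12 at 5 days (−0.10 without S1) and −0.56 after recovery. The hemidesmosome list had 0.02, 0.00 (−0.13 without S1) and −0.61. At 1 day 2 of 14 basal cell genes were called lower, and of 10 hemidesmosome genes 2 were called higher and 1 lower. TP63 was lower at 1 day (−0.36, limma, adjusted p = 0.00043). Its effect was 0.65 at 5 days (0.01 without S1) and −0.50 after recovery, with no change from 1 day to recovery detected (−0.14, adjusted p = 0.94). For KRT5 the effect was −0.03, −0.17 and −1.22 (difference from 5 days −1.05 ± 0.22 SE, adjusted p = 0.021), and for ITGB4 −0.07, −0.07 and −1.04 (difference −0.97 ± 0.18 SE, adjusted p = 0.011). For CYP26A1 the effect was 0.31, −1.05 and −1.76 (difference from 5 days −0.71 ± 0.15 SE, adjusted p = 0.022). It was called higher in smoke at 1 day (adjusted p = 0.0034), and at 5 days it was called lower without S1 (−1.04, adjusted p = 0.00032) but not with all animals (adjusted p = 0.80). CYP1B1 ran the other way, from log2 fold changes of 2.82 at 1 day and 2.65 at 5 days to 0.07 (difference −2.57 ± 0.47 SE, adjusted p = 0.011). ELMO1 was positive throughout, at 0.34, 0.97 and 1.31, and so was ALDH1A3, at 1.05, 0.74 and 0.89, with no change from 5 days detected for either (adjusted p = 0.33 for ELMO1 and 0.74 for ALDH1A3). Without the 5-day pair of S1 the ALDH1A3 effect differed from that at 5 days (difference 0.44, adjusted p = 0.019). The nuclear speckle gene RSRP1 (−0.38, −1.96 and 0.48) and the helicase gene EIF4A2 (−0.26, −0.73 and 0.28) had negative effects during exposure, called at 1 day and, without S1, at 5 days, and rose after recovery (adjusted p = 0.00019 and 0.0002 for the change from 5 days). The transporter genes SLC6A9 and SLC7A8, LANCL2 and the RNA-binding protein gene HNRNPDL moved the other way, to −0.79, −0.49, −0.61 and −0.28 after recovery.

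For some of the largest falls all 4 air cultures lay above the range of the earlier times. CYP26B1 lay at 9.19 to 63.2 in smoke and 194 to 313 in air, and at 1.61 to 157 in the 16 libraries of 1 and 5 days. TNS4 lay at 62.0 to 229 in smoke and 348 to 452 in air, and at 101 to 335 earlier, so 1 of its smoke libraries lay below the earlier range. CYP26A1 lay at 1971 to 4055 in smoke and 5890 to 12072 in air, and at 350.1 to 2227 earlier, so 1 of its smoke libraries reached above the earlier range too. Of the 1444 genes called lower, all 4 recovery air libraries were above all 16 earlier libraries for 109 (7.55%), and all 4 recovery smoke libraries were below all 16 for 17 (1.18%). Over all genes tested these shares were 1.68% and 0.888%. Among the 1311 genes called higher, all 4 recovery air libraries were below the earlier ones for 40 (3.05%) and the smoke libraries above them for 19 (1.45%). Over all genes tested the shares in these directions were 1.56% and 0.736%. A gene called lower had to be lower in smoke than in air, which favours both of the counts given for genes called lower. In the same way, being called higher favours both of the counts given for genes called higher. The days in culture, the end of exposure and the time of collection differ together between recovery and the earlier times and cannot be told apart.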

How the data were processed

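The members and gene lists were chosen with earlier results of these data known. RNA was poly-A selected, per the labels' protocols. Reads passed through FastQC, Trim Galore, Bowtie2 and RSEM, per the submitters' processing notes. No version, genome build or annotation is given in the sources used here. The deposited signal is a normalized count per gene and library. The values are not whole, and the median ratio to the geometric mean was about 1 in every library, so no count model was used. Depth before normalization is unknown.

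Values were taken as log2(value + 1), which understates changes of low genes. Smoke was compared with air in limma 3.58.1 (R 4.3.3) with the animal as a block, a mean trend in the variances, two-sided p-values and Benjamini-Hochberg adjustment over 13182 genes, at a threshold of 0.05. The numbers pair samples because they mark the animal in the labels. Deviations from group means correlated at 0.636 to 0.759 within animals and at −0.359 to −0.0193 between them. Where the within-animal values are positive, taking out the group means makes the between-animal values negative on average. Named genes were the 12 largest changes in each direction (mean of at least 50, same sign in 4 animals), the 3 members of each of 35 lists with the smallest p, the 5 largest changes of effect from 5 days by p in each direction, and 11 chosen genes. Some items are not reported here, although counts and medians of lists include them. Other list members named were chosen after their values were seen. The procedure was tested on simulated data. Whether cultures were exposed together is not stated, and each animal gave 1 culture to a group.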

Additional observations from a re-analysis of the deposited data

Results flagged for a closer look

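A single library stood apart from the other 3 of its group in 24 of 254 groups of 4 screened. Its gap to its neighbour, as a share of the whole range, lay above Dixon's 95% critical value for 4 samples. For independent normal values chance gives about 1 in 20. The values here were untransformed and smoke and air groups shared animals, so 24 of 254 cannot be set against that rate. With the gap's share of the range in parentheses, the highest smoke library stood apart for CYP26A1 (0.934), KIF20A (0.877), COL17A1 (0.955), TXNRD1 (0.904), CLCA1 (0.931), BPIFB1 (0.872), LYZ (0.855), AJUBA (0.9) and CXCL8 (0.862). The lowest smoke library stood apart for TP63 (0.856), OAS1 (0.854), ALDH3A1 (0.868) and MANF (0.942). The highest air library stood apart for LANCL2 (0.922), TP63 (0.854), MCM4 (0.886), EIF4A2 (0.849), DDX58 (0.867), BPIFB1 (0.859), GMNC (0.834), CXCL8 (0.918) and SAP30 (0.862). The lowest air library stood apart for KRT16 (0.93) and RSRP1 (0.895).

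For 55 of the 127 named genes considered the smoke effect after recovery differed from that at 5 days (limma, Benjamini-Hochberg adjusted p under 0.05), given here as the log2 difference, recovery minus 5 days. It was negative for GATA3 (−1.07), MKI67 (−3.39), CYP26A1 (−0.708), TNS4 (−1.64), HAS3 (−1.8), COL4A2 (−1.33), DSG3 (−1.7), SCNN1G (−1.83), EMP1 (−1.04), TFCP2L1 (−1.79) and TOP2A (−1.88). Other negative differences were those of ITGA2 (−1.48), KIF20A (−1.86), KRT5 (−1.05), SLC7A5 (−1.92), EGR1 (−1.33), ITGB4 (−0.971), COL17A1 (−0.831), LAMA3 (−0.988), SLC6A9 (−1.54), DUSP6 (−0.788), TEF (−0.743) and AQP3 (−0.911). Further negative differences were those of CD44 (−0.786), LANCL2 (−1.17), BAG3 (−0.625), EVPL (−0.602), SLC7A8 (−0.878), MCM3 (−0.825), MDM2 (−0.65), MCM4 (−0.714), DNMT1 (−0.698), SRXN1 (−0.417) and HNRNPDL (−1.08). It was positive for AHRR (0.437), EIF4A2 (1.01), BPIFB1 (0.722), HSPD1 (0.639), DNAJA1 (0.911), OAS1 (0.775), TPPP3 (0.883), SLC16A3 (1.24), RSRP1 (2.44), SC5D (0.557) and HYOU1 (0.847). Further positive differences were those of EGLN3 (1.17), PIFO (0.722), MANF (1.13), AGR3 (1.32), ZNF816 (0.959), DDN (1.06), AKAP14 (0.984), CRELD2 (1.84), SAP30 (2) and PFKFB4 (2.27). These named genes include those chosen for this change.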

How the results depend on the processing

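Each of the 2755 genes called after recovery kept its sign under every alternative that tested it. Alternatives that change only the block, the variances, the filter or the threshold leave the fold change as it was. The genes had also been selected as called, so the kept signs are no test of the calls. The number called depended on the fit. Without the replicate block 6 genes were called, 0 higher and 6 lower (1751 at an unadjusted p under 0.05). In a fit with the replicate block over all 24 libraries, which share 1 variance estimate with the 5-day air library of S1, 499 were called, 168 higher and 331 lower. Without the mean trend in the variances 334 were called, 120 higher and 214 lower. Without the filter on low values, which adds genes to the adjustment, 832 were called higher. With a 2-fold change required as well, 147 were called, 26 higher and 121 lower. With 1 animal left out the count lay between 1320 and 2864, between 527 and 1421 for higher and between 793 and 1443 for lower. Of the 2755, 983 were called in each of these 4 fits. The other pseudocounts, filter and scalings, the random animal effect and the robust prior kept each count within 1.5 times.

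The number of genes whose smoke effect differed between 5 days and recovery was 58 without the replicate block, 2377 without the 5-day libraries of S1 and 1315 at an adjusted p under 0.1. With 1 animal left out it lay between 5 and 2406. From 1 day to recovery it was 2, 2335 and 386 under the same alternatives, and lay between 3 and 1967 with 1 animal left out. The sign of CYP1B1, which was not called, turned: its log2 fold change lay between −0.0758 and 0.229 with 1 animal left out, and was −0.0437 without S2. The number of animals limits the precision of each value. The cause of these differences was not tested.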
